A study of Homo sapiens with 12 samples.

Results

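The genes described here are 9 receptor tyrosine kinases of the RET, PDGF, FGF, ERBB and HGF receptor families together with GFRA1, the co-receptor through which RET is engaged. They were taken by gene symbol (GFRA1, RET, PDGFRA, FGFR1, FGFR2, FGFR3, FGFR4, ERBB2, ERBB3 and MET), which gave 10 of the 63241 genes in the table. All 10 passed the filter on low counts and were among the 15614 genes tested. These genes and the lists used below were chosen with earlier results of these data known, so their called shares are descriptions only.

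A receptor tyrosine kinase is a membrane protein whose cytoplasmic kinase is switched on when a ligand brings receptor chains together, and it passes the signal to RAS-ERK and PI3K-AKT kinases. GFRA1 carries no kinase: it is a membrane-anchored protein that binds the ligand GDNF and presents it to RET, a pair known in the mouse for keeping spermatogonial stem cells in self-renewal. FGF receptors are known for their role in pluripotent cells, PDGFRA for mesenchymal and early endodermal cells, the ERBB receptors for epithelia, and MET for the response to HGF.

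The study asked what inhibition of BRD9 does to testicular germ cell tumour cells. Cultures of the seminoma line TCam-2 and of the embryonal carcinoma line 2102 EP, both labelled wild type, were kept for 24 h with 15 µM I-BRD9, an inhibitor of the bromodomain of BRD9, which is a subunit of a chromatin remodelling complex, or with its solvent DMSO. The 4 groups were TCam-2 with I-BRD9, TCam-2 with DMSO, 2102 EP with I-BRD9 and 2102 EP with DMSO, with 3 libraries each. The 2 lines were grown in different media, TCam-2 in RPMI and 2102 EP in DMEM, so that line and medium cannot be told apart, and each tumour type is represented by 1 line. The labels call the replicates biological without saying how cultures were separated, and p-values measure the spread between these libraries.

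Libraries were primed at transcript 3′ ends and held between 7290335 and 10053366 estimated counts. Levels are given in CPM, counts scaled to a common library size with TMM factors, and 3 counts in a library correspond to 0.298 to 0.412 CPM. A mean is taken over 3 libraries, and a value after ± on a mean is its SD. A log2 fold change carries its standard error and a p-value from edgeR's quasi-likelihood test, adjusted by Benjamini and Hochberg over all 15614 genes, and called means an adjusted p below 0.05. With DMSO, 7 of the 9 seminoma markers tested were called higher in TCam-2 than in 2102 EP and 2 (DND1 and ALPL) lower, and 7 of the 10 embryonal carcinoma markers were called lower and 3 (NANOG, POU5F1 and L1TD1) higher. The seminoma markers SOX17 and PRAME had at most 3 counts over the libraries of either 2102 EP group, and the embryonal carcinoma marker ZFP42 at most 3 over those of either TCam-2 group. The BRD9 transcript, whose protein is the target of the compound, averaged 123 CPM with I-BRD9 and 142 CPM with DMSO in TCam-2, and 92.6 CPM with I-BRD9 and 111 CPM with DMSO in 2102 EP. Its log2 fold change was -0.21 ± 0.09 in TCam-2 (adjusted p = 0.0965) and -0.26 ± 0.09 in 2102 EP (adjusted p = 0.0328). These effects were not called as different (0.06 ± 0.13, adjusted p = 0.844, all edgeR). In 4 libraries, 1 in each group, SLC11A2 had between 38632 and 44747 counts, against 690 to 1240 in the other 8; ERBB3, described last, was the only gene of the 10 that was called as different in these libraries.

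In TCam-2 the receptor genes moved mostly upward with I-BRD9 and the co-receptor fell. RET, FGFR1, FGFR3, FGFR4 and ERBB2 rose, GFRA1 fell to a few counts, and PDGFRA, FGFR2, ERBB3 and MET were not called. Over all genes tested, 31.8% were called in this comparison, 15.3% higher and 16.5% lower, and the 10 genes had a median log2 fold change of 0.30. The TCam-2 libraries with I-BRD9 lay entirely on 1 side of those with DMSO for 6 of the 10 genes, as they did for 45.7% of all genes tested.

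In 2102 EP the called changes all went down. PDGFRA, FGFR2, FGFR3 and FGFR4 fell, none of the 10 genes was called higher, and GFRA1, RET, FGFR1, ERBB2, ERBB3 and MET were not called. MET was at an adjusted p of 0.0538 in edgeR's quasi-likelihood test and was called higher by limma voom. Over all genes tested, 36.8% were called, 18.2% higher and 18.6% lower, and the median over the 10 genes was -0.18. The libraries with I-BRD9 lay on 1 side of those with DMSO for 8 of the 10 genes, and for 46.3% of all genes tested.

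**Figure D1:**
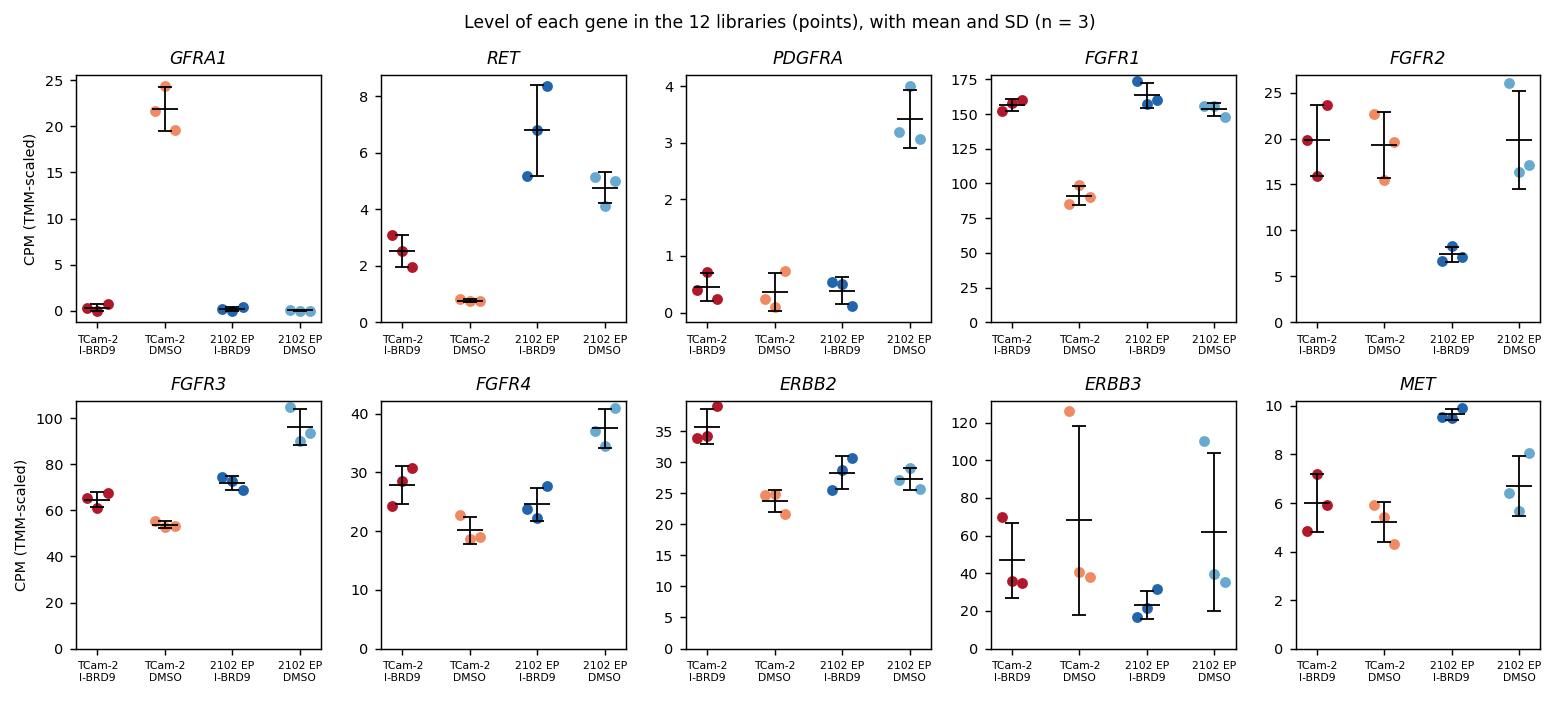
Level of each of the 10 genes in CPM (y axis, linear, a scale of its own per gene) in each library (points) of TCam-2 with I-BRD9, TCam-2 with DMSO, 2102 EP with I-BRD9 and 2102 EP with DMSO, with the mean and SD (bars, n = 3). GFRA1 stands high in TCam-2 with DMSO alone, PDGFRA in 2102 EP with DMSO alone, and 1 library of each group stands above the others for ERBB3.

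**Figure D2:**
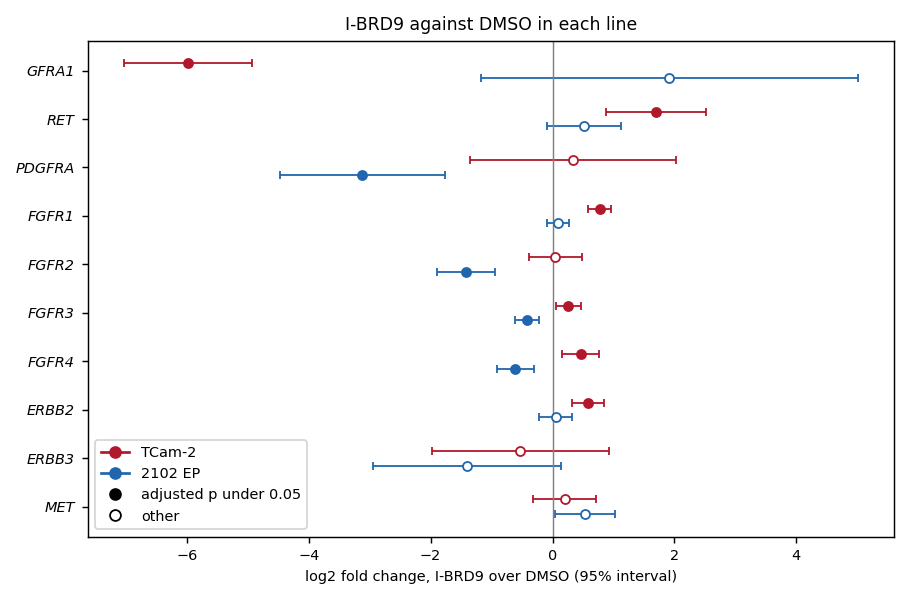
Log2 fold change of I-BRD9 over DMSO (x axis) for each gene (rows) in TCam-2 and 2102 EP, with 95% intervals (bars) and filled points at an adjusted p under 0.05. FGFR3 and FGFR4 lie right of 0 in TCam-2 and left of 0 in 2102 EP, and GFRA1 has its TCam-2 point at -5.98.

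GFRA1 (ENSG00000151892, on the minus strand of GRCh38 at chr10:116056925-116273467 in GENCODE 29) had the largest treatment change of the 10 genes. The TCam-2 libraries with I-BRD9 held 3, 0 and 6 counts and those with DMSO held 184, 230 and 160 counts. This corresponds to 0.297, 0 and 0.696 CPM with I-BRD9, and to 21.7, 24.4 and 19.6 CPM with DMSO. The transcript was thus present in each DMSO library and at or near the counting floor in each I-BRD9 library. Over the group, 9 counts with I-BRD9 against 574 with DMSO made a ratio of 0.0159 (95% counting interval 0.00724 to 0.0304), or 62.9-fold lower with an interval of 32.9 to 138, which covers counting error only. The fitted log2 fold change was -5.98 ± 0.46 (adjusted p = 4.39e-09, edgeR). In bulk RNA, fewer cells with a transcript and less of it per cell cannot be told apart.

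In 2102 EP, GFRA1 was close to undetected under either treatment, with 1, 0 and 4 counts with I-BRD9 and 1, 0 and 0 counts with DMSO. The ratio of the summed counts, 4.99, had a counting interval of 0.558 to 236, so that no change could be read at this depth. The difference between the lines in the I-BRD9 effect was -7.90 ± 1.57 on the log2 scale (adjusted p = 0.0016, edgeR). Its size depends on the prior count given to the few 2102 EP reads, and the call was lost without replicate 3 of 2102 EP with I-BRD9 (adjusted p = 0.126) and without the 4 libraries high in SLC11A2 (0.219). Between the lines with DMSO, 574 counts in TCam-2 and 1 count in 2102 EP gave a ratio of 538 with an interval of 96.2 to 21300. With I-BRD9 the 9 counts in TCam-2 and 5 counts in 2102 EP gave 1.72, with an interval of 0.517 to 6.52.

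RET (ENSG00000165731, plus strand, chr10:43077027-43130351), the kinase that GFRA1 serves, went the other way in TCam-2. It had 3.07, 2.52 and 1.97 CPM with I-BRD9 and 0.826, 0.743 and 0.735 CPM with DMSO, which are 31, 21 and 17 counts against 7, 7 and 6. No I-BRD9 library came near the DMSO range. The rise was 1.70 ± 0.36 on the log2 scale, or 3.26-fold (adjusted p = 0.000702, edgeR).

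RET was higher in 2102 EP than in TCam-2 under either treatment. The 2102 EP libraries had 5.18, 6.81 and 8.37 CPM with I-BRD9 and 5.15, 4.13 and 4.99 CPM with DMSO. These ranges lay next to each other without overlap, and the difference of 0.52 ± 0.26 was not called (adjusted p = 0.133, edgeR). The effect in TCam-2 minus that in 2102 EP was 1.19 ± 0.44, with a 95% interval of 0.16 to 2.21, and was not called (adjusted p = 0.0837). TCam-2 against 2102 EP stood at -1.42 ± 0.28 with I-BRD9 and at -2.61 ± 0.34 with DMSO, 2 comparisons that share no library but each share theirs with the treatment comparisons.

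The RefSeq promoters of GFRA1 and RET (GRCh38.p14, from 250 bases before to 50 after a transcript start) are shown because these partner genes moved in opposite directions in TCam-2. Where RefSeq lists several starts, that nearest to the start of the GENCODE gene was taken, which lay 992 bases away for GFRA1 (4 starts listed) and 42 bases away for RET (2 starts listed). Reads from transcript 3′ ends do not show which start was used. Capitals mark the GC box GGGCGG on either strand, and adjoining boxes run together.
GFRA1, chr10:116272426-116272725, minus strand: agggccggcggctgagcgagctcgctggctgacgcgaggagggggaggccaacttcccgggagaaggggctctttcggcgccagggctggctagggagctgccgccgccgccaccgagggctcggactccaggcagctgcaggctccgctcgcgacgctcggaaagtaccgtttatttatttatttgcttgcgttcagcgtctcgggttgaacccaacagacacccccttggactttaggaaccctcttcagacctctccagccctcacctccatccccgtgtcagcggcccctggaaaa
RET, chr10:43076819-43077118, plus strand: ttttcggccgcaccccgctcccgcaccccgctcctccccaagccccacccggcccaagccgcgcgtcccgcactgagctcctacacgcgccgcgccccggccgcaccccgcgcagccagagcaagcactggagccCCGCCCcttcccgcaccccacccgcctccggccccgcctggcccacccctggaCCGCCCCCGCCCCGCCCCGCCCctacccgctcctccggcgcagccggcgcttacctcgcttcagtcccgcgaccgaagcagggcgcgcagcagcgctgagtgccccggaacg
The RET window held 5 GC boxes and the GFRA1 window none, while 45.0% of the 35116 promoters in the table held at least 1. No CCAAT motif was found on either strand of these windows. The TATA box, searched as TATAAA, was absent as well. So were the E-box, for which the letters searched were CACGTG, and the octamer, searched as ATGCAAAT. The AP-1 site, whose letters were taken as TGANTCA, had no match either. The GFRA1 window had 25 CpG and the RET window 41, and the median over all promoters was 14.

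Of 11 ligands and co-receptors in the list of GDNF pathway genes, 7 passed the low-count filter, and GDNF itself, the ligand of GFRA1, did not. In TCam-2, 2 of the 7 rose and 2 fell: NRTN, a ligand of the same family, rose by 1.31 ± 0.40 (adjusted p = 0.0146) and the adhesion molecule NCAM1, which also binds GFRA1, by 1.42 ± 0.39, while GFRA3, the co-receptor for artemin, fell by 1.56 ± 0.37 and GDF15 by 1.78 ± 0.19. That was 57.1% called, against 31.8% of all genes tested, and without the 4 libraries high in SLC11A2 1 rose and 2 fell. In 2102 EP, where 28.6% were called against 36.8% of all genes tested, NCAM1 rose by 2.31 ± 0.28 (12.2 CPM with I-BRD9 and 2.43 CPM with DMSO) and GDF15 fell by 1.59 ± 0.12 (26.0 CPM with I-BRD9 and 77.8 CPM with DMSO). ARTN, PSPN and SDC3 were called in neither line, and none of the 7 was called as different between the lines in its I-BRD9 effect.

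PDGFRA (ENSG00000134853, plus strand, chr4:54229097-54298247), the PDGF receptor alpha chain, was detected well above the floor in 2102 EP with DMSO only. In 2102 EP it had 0.545, 0.501 and 0.112 CPM with I-BRD9 and 3.20, 4.01 and 3.07 CPM with DMSO, or 4, 5 and 1 counts against 28, 34 and 24. The highest I-BRD9 library stayed far below the lowest DMSO library. The summed counts, 10 against 86, made it 8.62-fold lower with an interval of 4.47 to 18.6, and the fitted log2 fold change was -3.12 ± 0.58 (adjusted p = 0.000206, edgeR). In 1 library the PDGFRA count was not a whole number, which marks reads shared with another gene.

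In TCam-2 PDGFRA had 0.396, 0.721 and 0.232 CPM with I-BRD9 and 0.236, 0.106 and 0.735 CPM with DMSO. At 12 against 9 counts over the groups, with ranges that overlap, a change was not detectable (ratio 1.35, interval 0.523 to 3.63). The effect in TCam-2 minus that in 2102 EP was 3.46 ± 0.96 (adjusted p = 0.0181, edgeR). It was no longer called without replicate 2 of TCam-2 with DMSO (adjusted p = 0.0524), without replicate 2 of TCam-2 with I-BRD9 (0.0913), or without the 4 libraries high in SLC11A2 (0.154).

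PDGFRA is also a marker of mesenchymal cells. Of 8 fibroblast and stromal markers, DCN and FAP had at most 3 counts over the libraries of each group, and COL3A1 and LUM likewise in both 2102 EP groups. Others were present. COL1A1 averaged between 16.3 and 20.5 CPM in every group, and COL1A2 averaged 93.0 CPM with I-BRD9 and 150 CPM with DMSO in TCam-2. In 2102 EP COL1A2 averaged 0.845 CPM with I-BRD9 and 2.12 CPM with DMSO. The summed level of the 8 markers ran between 138 and 158 CPM in 2102 EP with I-BRD9 and between 229 and 254 CPM in 2102 EP with DMSO, most of it THY1, which embryonal carcinoma cells also express. The part of this shift in the PDGFRA result was not tested.

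The RefSeq promoter of PDGFRA is shown because it was unlike those of the FGF receptors given below. Its start lay 196 bases from that of the GENCODE gene, with 2 starts listed. Capitals mark its only match among the motifs searched, the loose AP-1 pattern TGANTCA, in which N is any base. The match reads TGAATCA, and no stricter pattern was searched.
PDGFRA, chr4:54229043-54229342, plus strand: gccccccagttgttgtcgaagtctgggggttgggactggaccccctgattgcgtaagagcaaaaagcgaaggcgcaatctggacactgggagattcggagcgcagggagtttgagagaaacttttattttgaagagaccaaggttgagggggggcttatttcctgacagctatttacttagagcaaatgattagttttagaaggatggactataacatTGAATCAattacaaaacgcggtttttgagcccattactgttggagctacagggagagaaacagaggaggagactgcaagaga
The window had 8 CpG and a GC content of 47.0%, against medians of 14 and 58.7% over all promoters, and it held no GC box. This loose pattern, whatever its middle base, occurred in 7.71% of all promoters.

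All 3 PDGF ligands that passed the filter were called in TCam-2, against 31.8% of all genes tested. In 2102 EP 1 of the 3 was called, 33.3% against 36.8%. PDGFA, a ligand of PDGFRA, rose by 0.82 ± 0.07 in TCam-2 (749 CPM with I-BRD9 and 424 CPM with DMSO). In 2102 EP it fell by 1.01 ± 0.08 (134 CPM with I-BRD9 and 269 CPM with DMSO). The difference of these effects was 1.83 (adjusted p = 3.58e-11, edgeR). In TCam-2 PDGFB fell by 1.27 ± 0.30 and PDGFC by 1.33 ± 0.17, and in 2102 EP neither was called. PDGFRB, the partner chain of PDGFRA, was called in neither line, at 0.405 CPM with I-BRD9 and 0.952 CPM with DMSO in TCam-2 and 2.72 CPM with I-BRD9 and 1.71 CPM with DMSO in 2102 EP.

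The FGF receptors behaved differently in the 2 lines, and each of the 4 genes was called as different in its I-BRD9 effect. These receptors bind FGF ligands with heparan sulphate or klotho proteins as co-receptors. For this difference 13.1% of all genes tested were called, 5.90% higher in TCam-2 and 7.19% lower, while of the 10 genes 6 were called higher and 1, GFRA1, lower.

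FGFR1 (ENSG00000077782, chromosome 8, minus strand) rose in TCam-2 and was not called in 2102 EP. TCam-2 had 152, 158 and 160 CPM with I-BRD9 and 85.0, 98.9 and 90.0 CPM with DMSO, without overlap. 2102 EP had 174, 157 and 160 CPM with I-BRD9 and 156, 156 and 148 CPM with DMSO. The log2 fold change was 0.78 ± 0.08 in TCam-2 (adjusted p = 9.5e-08) and 0.09 ± 0.08 in 2102 EP (adjusted p = 0.414), and the difference was 0.69 ± 0.11 (adjusted p = 0.000141, all edgeR). With I-BRD9, TCam-2 against 2102 EP stood at -0.06 with a 95% interval of -0.24 to 0.12, and with DMSO at -0.75 with an interval of -0.93 to -0.56. The FGFR1 count was not a whole number in 4 libraries, which marks reads shared with other genes. It lay at most 0.361 from a whole number, which does not measure how many reads were shared.

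FGFR2 (ENSG00000066468, minus strand, chr10:121478334-121598458) fell in 2102 EP. The 2102 EP libraries had 6.68, 8.31 and 7.14 CPM with I-BRD9 and 26.0, 16.4 and 17.1 CPM with DMSO. TCam-2 had 19.8, 15.9 and 23.7 CPM with I-BRD9 and 22.7, 15.5 and 19.6 CPM with DMSO, within the same range. The change in 2102 EP was -1.42 ± 0.21, or 2.68-fold (adjusted p = 1.05e-05), against 0.04 ± 0.19 in TCam-2, whose 95% interval was -0.39 to 0.48, and the difference was 1.46 ± 0.28 (adjusted p = 0.000799, all edgeR).

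FGFR3 (ENSG00000068078, plus strand, chr4:1793293-1808872) moved in opposite directions by modest amounts. TCam-2 had 65.3, 61.1 and 67.5 CPM with I-BRD9 and 55.5, 52.7 and 53.4 CPM with DMSO. 2102 EP had 74.6, 72.8 and 68.8 CPM with I-BRD9 and 105, 90.0 and 93.8 CPM with DMSO. The treated libraries of the lines came close to each other while those with DMSO lay far apart. The log2 fold changes were 0.26 ± 0.09 in TCam-2 (adjusted p = 0.0256) and -0.42 ± 0.09 in 2102 EP (adjusted p = 0.000574), and the difference was 0.68 ± 0.12 (adjusted p = 0.000472, all edgeR). The rise in TCam-2 was lost without any of 4 single TCam-2 libraries, replicates 1 and 3 with I-BRD9 and 2 and 3 with DMSO (adjusted p up to 0.0859), without the 4 libraries high in SLC11A2 (0.107), and with no low-count filter (0.0546).

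FGFR4 (ENSG00000160867, plus strand, chr5:177086886-177098144), the receptor through which FGF19 acts in the liver, showed the same arrangement. TCam-2 had 24.3, 28.5 and 30.7 CPM with I-BRD9 and 22.8, 18.7 and 18.9 CPM with DMSO. 2102 EP had 23.7, 22.2 and 27.7 CPM with I-BRD9 and 37.0, 34.4 and 41.0 CPM with DMSO. It was higher with I-BRD9 in TCam-2 and lower with I-BRD9 in 2102 EP, with no overlap in either line. The log2 fold changes were 0.47 ± 0.13 in TCam-2 (adjusted p = 0.00869) and -0.61 ± 0.13 in 2102 EP (adjusted p = 0.000692), and the difference was 1.08 ± 0.18 (adjusted p = 0.00025, all edgeR). Without replicate 3 of TCam-2 with I-BRD9 the adjusted p of the rise was 0.0517.

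The RefSeq promoters of FGFR3 (1 start listed, at that of the GENCODE gene) and FGFR4 (2 listed, the nearest 29 bases away) are shown because these 2 genes were called in opposite directions in the lines. Capitals mark the GC box as above.
FGFR3, chr4:1793043-1793342, plus strand: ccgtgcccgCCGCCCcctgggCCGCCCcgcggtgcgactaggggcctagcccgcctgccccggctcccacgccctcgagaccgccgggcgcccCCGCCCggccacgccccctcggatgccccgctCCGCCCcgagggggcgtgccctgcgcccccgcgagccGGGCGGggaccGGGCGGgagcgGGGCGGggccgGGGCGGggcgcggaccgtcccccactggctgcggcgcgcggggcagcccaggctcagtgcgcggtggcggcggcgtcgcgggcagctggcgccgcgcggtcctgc
FGFR4, chr5:177086665-177086964, plus strand: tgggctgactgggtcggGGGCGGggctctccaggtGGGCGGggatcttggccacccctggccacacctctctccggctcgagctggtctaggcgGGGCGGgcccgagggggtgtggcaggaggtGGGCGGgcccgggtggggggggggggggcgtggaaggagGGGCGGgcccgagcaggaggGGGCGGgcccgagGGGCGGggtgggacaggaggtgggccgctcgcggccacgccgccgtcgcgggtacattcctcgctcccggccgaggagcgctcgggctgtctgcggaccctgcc
The FGFR3 window held 8 GC boxes with a GC content of 86.3%, and the FGFR4 window 7 with 78.7%. That of FGFR2, which fell in 2102 EP and was not called in TCam-2, held 5 at 79.3%. Apart from a CCAAT box in FGFR2, no other motif searched was found in these windows. A CCAAT box occurred in 34.6% of all promoters.

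Summed over FGFR1 to FGFR4, FGF receptor transcripts came to 269 ± 11.6 CPM with I-BRD9 and 185 ± 2.33 CPM with DMSO in TCam-2. In 2102 EP they came to 267 ± 10.1 CPM with I-BRD9 and 307 ± 14.7 CPM with DMSO (SD, n = 3 each). The sum was higher in every treated TCam-2 library and lower in every treated 2102 EP library than in any DMSO library of the same line. Counts of 3′ ends do not scale with transcript length, so shares of this sum can be given. FGFR1 made up 58.3% ± 1.57 with I-BRD9 and 49.5% ± 3.76 with DMSO in TCam-2, and 61.1% ± 1.13 with I-BRD9 and 50.1% ± 2.26 with DMSO in 2102 EP. Each of these 4 treatment differences had an exact 2-sided permutation p of 0.1, the smallest that 3 against 3 libraries can give.

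Of 27 FGF ligands, co-receptors and binding proteins, 13 passed the filter. In TCam-2, 1 rose and 3 fell, a called share of 30.8% against 31.8% of all genes tested, and in 2102 EP 2 rose and 5 fell, 53.8% against 36.8%. FGF4 fell in TCam-2, where 2 counts over the group with I-BRD9 and 226 with DMSO gave a ratio of 0.00898 (95% counting interval 0.00108 to 0.0328), and it fell by 3.40 ± 0.24 in 2102 EP (2.53 CPM with I-BRD9 and 27.2 CPM with DMSO). FGF19 fell by 4.11 ± 0.35 in 2102 EP (21 counts over the group with I-BRD9 and 348 with DMSO). FGF18 rose by 1.65 ± 0.21 in TCam-2 and by 1.69 ± 0.15 in 2102 EP.

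ERBB2 (ENSG00000141736, plus strand, chr17:39687914-39730426), which binds no ligand of its own and pairs with other ERBB chains, rose in TCam-2. It had 33.9, 34.2 and 39.0 CPM with I-BRD9 and 24.7, 24.9 and 21.7 CPM with DMSO in TCam-2, a change of 0.59 ± 0.12 (adjusted p = 0.000441, edgeR). In 2102 EP it had 25.5, 28.7 and 30.7 CPM with I-BRD9 and 27.2, 29.1 and 25.6 CPM with DMSO, with overlapping ranges and a change of 0.05 whose 95% interval was -0.22 to 0.32. The difference, 0.53 ± 0.17 (adjusted p = 0.0349), was not called in 10 of the 12 fits that left out 1 library, where its adjusted p reached 0.107, nor without the 4 libraries high in SLC11A2 (0.0854). ERBB2 overlaps the genes MIEN1 and PGAP3 on the opposite strand, and since no use of strand is stated, reads of the 3 genes may be mixed. The ERBB2 counts were whole numbers in every library.

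MET (ENSG00000105976, plus strand, chr7:116672390-116798386), the HGF receptor, was not called for I-BRD9 in either line. In TCam-2 it had 4.84, 7.21 and 5.92 CPM with I-BRD9 and 5.90, 5.41 and 4.29 CPM with DMSO, overlapping, with a change of 0.20 ± 0.22 (adjusted p = 0.553, edgeR). In 2102 EP it had 9.54, 9.52 and 9.93 CPM with I-BRD9 and 6.41, 5.66 and 8.05 CPM with DMSO. Every 2102 EP library with I-BRD9 was above every one with DMSO, and the change of 0.53 ± 0.21 had an adjusted p of 0.0538. HGF did not pass the filter. HPN, a protease that can activate HGF, rose by 2.23 ± 0.45 in TCam-2 and by 0.88 ± 0.34 in 2102 EP (adjusted p = 0.0484, edgeR), a call that was lost without the 4 libraries high in SLC11A2, and the inhibitors SPINT1 and SPINT2 fell in 2102 EP by 0.58 ± 0.12 and 0.53 ± 0.13.

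ERBB3 (ENSG00000065361, plus strand, chr12:56076799-56103505), the neuregulin receptor with a weak kinase, varied widely between replicates. TCam-2 had 70.0, 35.6 and 35.0 CPM with I-BRD9 and 126, 40.5 and 37.8 CPM with DMSO. 2102 EP had 16.6, 21.4 and 31.5 CPM with I-BRD9 and 110, 39.6 and 35.3 CPM with DMSO. The highest library of each group was the one high in SLC11A2, which encodes an iron transporter. ERBB3 stood 1.27 higher on the log2 scale in these 4 libraries, 60 genes (0.384% of those tested) were called with them, and this set was recognised after the ERBB3 values had been seen. The cause was not tested.

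As fitted, ERBB3 was called in no comparison. The change with I-BRD9 was -0.53 ± 0.63 in TCam-2 and -1.40 ± 0.67 in 2102 EP (adjusted p = 0.586 and 0.143, edgeR). Without robust estimation the change in 2102 EP was called (-1.40, adjusted p = 0.0334). With a term for the 4 libraries, an alternative added after seeing the data, it was -1.28 in 2102 EP (adjusted p = 0.000211), TCam-2 against 2102 EP with I-BRD9 was 0.98 (0.000712), and the treatment effects differed by 0.86 (0.0476). Without those libraries the 2102 EP change was -0.98 (adjusted p = 0.000232). ERBB3 counts were not whole numbers in 10 of the 12 libraries, and the gene overlaps ENSG00000257411 on the same strand, which averaged 212 CPM with I-BRD9 and 343 CPM with DMSO in TCam-2 and 411 CPM with I-BRD9 and 474 CPM with DMSO in 2102 EP. How reads were divided between these genes is not known, and ERBB3 values are uncertain for that reason.

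**Figure D3:**
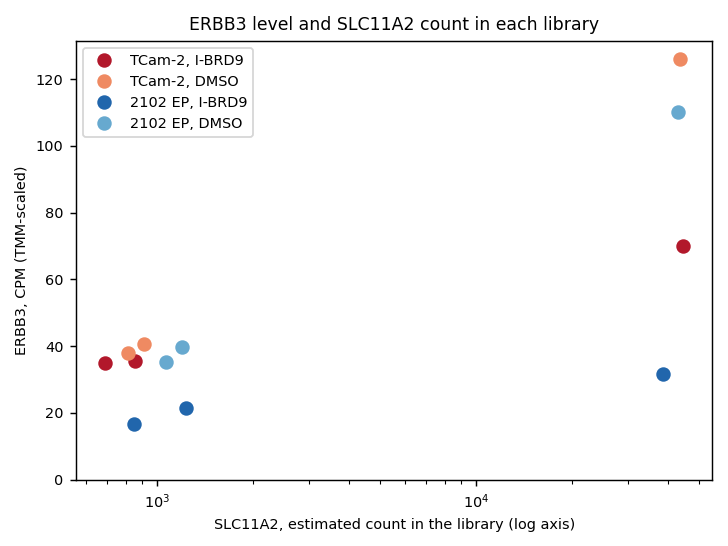
ERBB3 level in CPM (y axis, linear) against the estimated count of SLC11A2 (x axis, log scale) in each of the 12 libraries, coloured by group. The 4 libraries with 38632 or more SLC11A2 counts hold the highest ERBB3 value of each group, and 2102 EP with I-BRD9 has the lowest ERBB3 value on either side.

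Of 11 EGF-like and neuregulin ligands only HBEGF and NRG1 passed the filter. HBEGF, a ligand of EGFR and ERBB4, rose by 1.99 ± 0.14 in TCam-2 (28.0 CPM with I-BRD9 and 7.05 CPM with DMSO) and by 1.79 ± 0.14 in 2102 EP (28.7 CPM with I-BRD9 and 8.26 CPM with DMSO). NRG1, a ligand of ERBB3, was called in neither line. It had 0.459 CPM with I-BRD9 and 0.162 CPM with DMSO in TCam-2, and 4.04 CPM with I-BRD9 and 2.86 CPM with DMSO in 2102 EP.

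The lines were also compared under each treatment. In TCam-2 against 2102 EP with I-BRD9, FGFR2 (1.41 ± 0.20) and ERBB2 (0.33 ± 0.12) were called higher, and RET (-1.42 ± 0.28) and MET (-0.70 ± 0.21) lower. The call of ERBB2 was lost without replicate 1 of 2102 EP with I-BRD9 (adjusted p = 0.0857) or replicate 3 of TCam-2 with I-BRD9 (0.0948, edgeR), and that of MET without the 4 libraries high in SLC11A2 (0.104). With DMSO, GFRA1 (8.66 ± 0.61) was called higher and RET (-2.61 ± 0.34), PDGFRA (-3.24 ± 0.59), FGFR1 (-0.75 ± 0.08), FGFR3 (-0.84 ± 0.09) and FGFR4 (-0.90 ± 0.13) lower. The GFRA1 value rests on 1 count in 2102 EP. Its counting interval, 96.2 to 21300 as a ratio, is wider than the standard error conveys. Of all genes tested, 62.2% were called with I-BRD9, 31.1% higher and 31.1% lower, and 62.6% with DMSO, 31.7% higher and 30.8% lower. The groups did not overlap for 6 of the 10 genes with I-BRD9, against 66.3% of all genes tested, and for 7 of the 10 with DMSO, against 67.6%. The 2 line comparisons and the treatment comparisons are built from the same 4 groups.

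**Figure D4:**
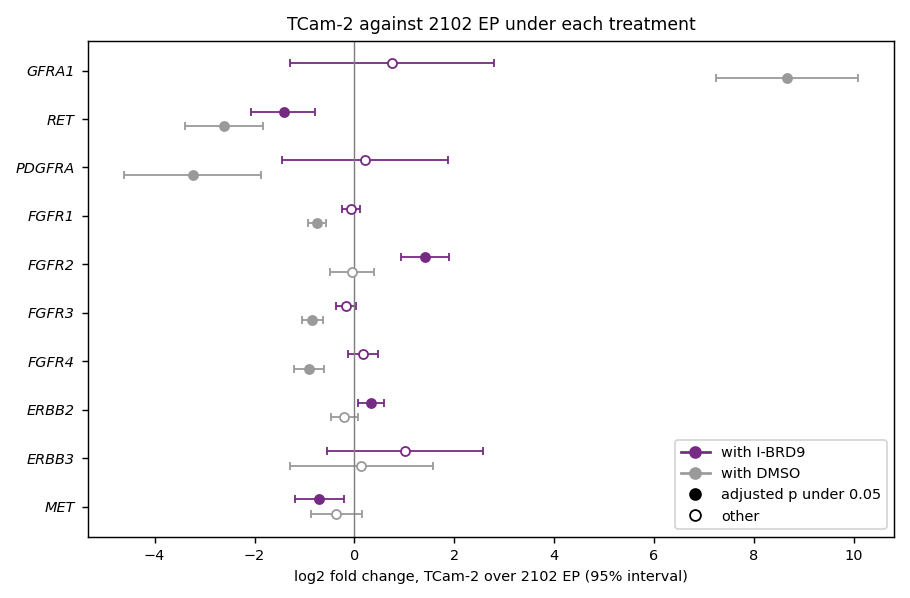
Log2 fold change of TCam-2 over 2102 EP (x axis) for each gene (rows) with I-BRD9 and with DMSO, with 95% intervals (bars) and filled points at an adjusted p under 0.05. The DMSO points of RET, PDGFRA, FGFR1, FGFR3 and FGFR4 lie left of 0 and that of GFRA1 at 8.66, while with I-BRD9 FGFR2, ERBB2, RET and MET are called. The GFRA1 point with DMSO rests on 1 count in 2102 EP, so its bar understates the uncertainty.

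Neighbours in the order of group means were often not separated. RET ran from 2102 EP with I-BRD9 through 2102 EP with DMSO and TCam-2 with I-BRD9 down to TCam-2 with DMSO without overlap at any step. FGFR3 ran from 2102 EP with DMSO through 2102 EP with I-BRD9 and TCam-2 with I-BRD9 down to TCam-2 with DMSO, also without overlap, although its lines did not pass the test with I-BRD9 (-0.16 ± 0.09, adjusted p = 0.124, edgeR). For FGFR1 only TCam-2 with DMSO stood apart from its neighbour, for FGFR2 only 2102 EP with I-BRD9, and for FGFR4 and PDGFRA only 2102 EP with DMSO.

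Other receptor tyrosine kinases showed no common direction. Of 49 in the list, 32 passed the filter, and 6 rose and 8 fell in TCam-2 while 4 rose and 6 fell in 2102 EP. The share called was 43.8% in TCam-2, against 31.8% of all genes tested, and 31.2% in 2102 EP, against 36.8%. The median log2 fold change was 0.07 in TCam-2 and -0.15 in 2102 EP, and over all genes tested it was 0.01 in TCam-2 and 0 in 2102 EP. In TCam-2 the neurotrophin receptor NTRK3 fell by 2.08 ± 0.26. MERTK, a receptor for the clearance of dying cells, fell by 1.71 ± 0.17 in TCam-2 and rose by 0.98 ± 0.22 in 2102 EP. LMTK3 rose by 1.60 ± 0.22 in TCam-2 and by 1.41 ± 0.21 in 2102 EP, and the ephrin receptors EPHA1 (-1.67 ± 0.15) and EPHB4 (-1.25 ± 0.16) fell in 2102 EP, as they did in TCam-2 (EPHA1 -0.61 ± 0.14 and EPHB4 -0.76 ± 0.15). KIT, the stem cell factor receptor characteristic of seminoma, rose by 0.90 ± 0.16 in TCam-2 (49.4 CPM with I-BRD9 and 26.5 CPM with DMSO) and was at 1.71 CPM with I-BRD9 and 1.29 CPM with DMSO in 2102 EP.

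Downstream of the receptors, most feedback and target genes of ERK fell in either line. Of 17 that passed the filter, 2 rose and 12 fell in TCam-2 (median -1.10), and 3 rose and 12 fell in 2102 EP (median -1.01). That was 82.4% called in TCam-2, against 31.8% of all genes tested, and 88.2% in 2102 EP, against 36.8%. This list was chosen with earlier results of these data known. The factor genes ETV4 (log2 fold change -4.54 ± 0.20) and ETV5 (-4.14 ± 0.22) and the inhibitor gene SPRY4 (-3.44 ± 0.24) fell in TCam-2, and ETV1 (-2.46 ± 0.15), ETV4 (-2.32 ± 0.12) and SPRY4 (-2.26 ± 0.18) in 2102 EP. EGR1 went against them and rose by 1.05 ± 0.09 in TCam-2 and by 1.47 ± 0.10 in 2102 EP. The other rises were called in 1 line each, and the same genes fell in the other line. PHLDA1 rose by 0.37 ± 0.11 in TCam-2 and fell by 0.93 ± 0.11 in 2102 EP. In 2102 EP CCND1 rose by 0.69 ± 0.07 and IER3 by 0.82 ± 0.09, and in TCam-2 CCND1 fell by 0.69 ± 0.09 and IER3 by 1.10 ± 0.09. Without the 4 libraries high in SLC11A2, 1 rose and 12 fell in TCam-2, and 3 rose and 11 fell in 2102 EP.

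The kinases and adaptors that carry the receptor signal were mixed. Of 21 RAS-ERK and PI3K-AKT genes, 6 rose and none fell in TCam-2 (median 0.15), and 6 rose and 4 fell in 2102 EP (median 0.14). The share called was 28.6% in TCam-2, against 31.8% of all genes tested, and 47.6% in 2102 EP, against 36.8%. Without the 4 libraries high in SLC11A2, 3 rose in TCam-2, and in 2102 EP 7 rose and 2 fell. PIK3R1, a regulatory subunit of PI3K, rose by 0.86 ± 0.15 in TCam-2 and by 0.86 ± 0.15 in 2102 EP, PIK3R3 rose by 2.29 ± 0.14 in 2102 EP, and MAPK3, which encodes ERK1, fell there by 0.97 ± 0.16. Of 22 adaptors tested, 3 rose and 2 fell in TCam-2, and 5 rose and 4 fell in 2102 EP, which was 22.7% called in TCam-2 and 40.9% in 2102 EP. Without those 4 libraries 1 adaptor rose and 2 fell in TCam-2, and 4 rose and 2 fell in 2102 EP. GRB7, an adaptor of ERBB2, fell by 2.11 ± 0.11 in 2102 EP (16.3 CPM with I-BRD9 and 70.2 CPM with DMSO), where ERBB2 was not called. Of 16 genes of receptor turnover and inhibition, 4 rose and 3 fell in TCam-2, and 3 rose and 4 fell in 2102 EP, 43.8% called in each line. Without those 4 libraries 2 rose and 1 fell in TCam-2, and 3 rose and 2 fell in 2102 EP. ERRFI1, an inhibitor of ERBB receptors, fell by 1.37 ± 0.19 in 2102 EP. LRIG1, which lowers the amount of ERBB receptors, fell by 1.12 ± 0.28 in TCam-2 and by 0.70 ± 0.27 in 2102 EP (adjusted p = 0.0445, edgeR). STUB1 rose by 0.60 ± 0.09 in TCam-2 and by 0.99 ± 0.10 in 2102 EP. SH3KBP1 rose by 0.53 ± 0.09 in TCam-2 and by 0.80 ± 0.09 in 2102 EP.

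**Figure D5:**
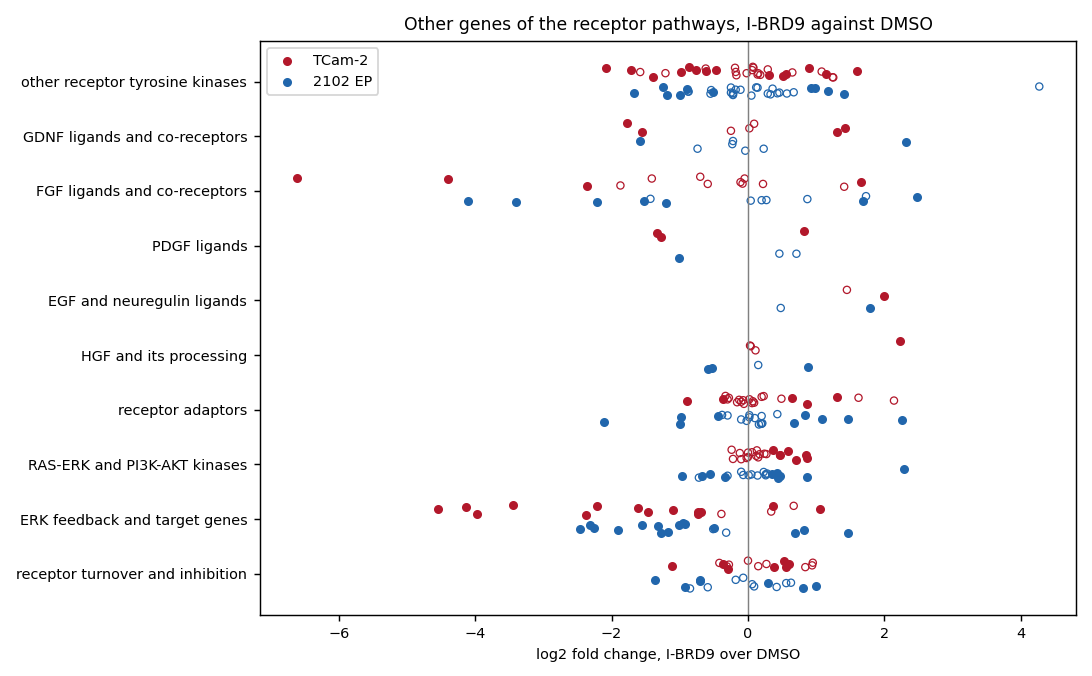
Log2 fold change of I-BRD9 over DMSO (x axis) of each tested gene (points, filled at an adjusted p under 0.05) in 10 lists of other receptor pathway genes (rows) in TCam-2 and 2102 EP. Most ERK feedback genes lie left of 0 in either line, with ETV4 at -4.54 in TCam-2, while other receptors, kinases and adaptors lie on either side.

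Cell identity markers moved with the treatment as well. All 10 embryonal carcinoma markers fell in 2102 EP and 9 of the 10 in TCam-2, where GDF3 dropped to at most 3 counts over the group. Their summed level ran between 1830 and 1950 CPM with I-BRD9 and between 3810 and 3920 CPM with DMSO in TCam-2, and between 1960 and 2070 CPM with I-BRD9 and between 5080 and 5150 CPM with DMSO in 2102 EP. The 10 seminoma markers summed to between 1260 and 1430 CPM with I-BRD9 and between 1600 and 2060 CPM with DMSO in TCam-2. Most of this sum was TFAP2C (994 CPM with I-BRD9 and 1210 CPM with DMSO), which was not called (adjusted p = 0.342, edgeR). Of the 9 seminoma markers tested, 6 were called lower in TCam-2 and 1, KIT, higher. In 2102 EP 3 were called lower and 1 higher. The part of this shift in the receptor results was not tested. Blood and endothelial markers stayed below 7 CPM in sum in every library, with PTPRC, CD3E and HBB at no more than 3 counts in each group.

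The genes whose log2 CPM followed a receptor most closely over the 12 libraries were found among 9695 genes with at least 10 CPM in their highest group. Pearson's r is a description here, since the libraries share 4 groups and their depth. For GFRA1 they were CCND2 (r = 0.967), CASP8 (0.965) and SHROOM4 (0.961), and CCND2, for instance, averaged 235 CPM with I-BRD9 and 720 CPM with DMSO in TCam-2. For RET they were FSCN1 (0.980), B2M (0.979) and GNAI2 (0.979). For PDGFRA they were FGD4 (0.935), TERF1P5 (0.928) and PHF14 (0.920). Each of these 9 genes had its highest mean in the same group as its receptor.

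For FGFR1 the closest were ZBTB46 (r = 0.978), NINL (0.967) and NES (0.961), and for FGFR2 MCL1 (0.963), DNMBP (0.958) and RBM47 (0.956). For FGFR3 they were WDR44 (0.978), SESTD1 (0.977) and RBM7 (0.968), and for FGFR4 ARHGAP4 (0.918), MARCKS (0.909) and SSBP3 (0.907). The likeness was weaker for ERBB3, with ELFN1 (0.896), FZD7 (0.855) and MEAF6 (0.846). ERBB2 had SDC4 (0.955) and SLC39A13 (0.929), and MET had TRAF5 (0.925), MT-TL1 (0.924) and SMARCB1 (0.922).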

How the data were processed

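Total RNA of 12 cultures was made into 3′ libraries with a Lexogen QuantSeq kit, per the labels. The authors deposited estimated counts of each gene, for which the submitters' processing notes name Salmon 1.9.0, STAR 2.7.11b, Trim Galore, R 4.2.0, DESeq2 and GRCh38; neither annotation nor strand is given there. Rounded to whole numbers, the estimated counts went into edgeR 4.0.16 under R 4.3.3 (TMM, filterByExpr by group, glmQLFit with robust estimation and glmQLFTest) in 1 model of 4 group means over 12 libraries, with 8 residual degrees of freedom. The standard error is the log2 fold change divided by the square root of F, and it is only approximate where a group holds almost no counts. The 95% intervals of fold changes use a t distribution with the residual degrees of freedom. Intervals of count ratios are exact at 95% and cover counting error. Alternatives used DESeq2 1.42.0 and limma 3.58.1 (voom). Scripts were tested on simulated counts.

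The 10 genes and the lists were chosen with earlier results of these data known. The text names all 10, the 3 genes most like each (1 of them is not reported here), and from each list up to 4 genes per line with the largest called changes. KIT, SLC11A2, PDGFRB, ENSG00000257411, list members named only as not called, and others outside that rule were named after their values were seen. Gene positions are those of GENCODE 29, in which 58228 table identifiers were found, and promoters are from RefSeq, with 8 of the 10 genes matched. Same-numbered replicates correlated by -0.12 to 0.16 and were not treated as pairs.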

Additional observations from a re-analysis of the deposited data

Results flagged for a closer look

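For 7 of the 10 genes the effect of I-BRD9 in TCam-2 minus that in 2102 EP passed the test of the difference itself (edgeR's quasi-likelihood test, adjusted over all genes tested), while 13.1% of all genes did. The 10 genes were chosen with earlier results of these data known, so this share is a description and not a test of the group. GFRA1 had a difference of -7.90 (log2, adjusted p = 0.0016), with 3 of 3 TCam-2 libraries with I-BRD9 below every one with DMSO, and almost no counts in 2102 EP. PDGFRA had 3.46 (adjusted p = 0.0181), with 3 of 3 2102 EP libraries with I-BRD9 below every one with DMSO, and few counts in TCam-2. Among the FGF receptors the difference was 0.69 for FGFR1 (adjusted p = 0.000141), 1.46 for FGFR2 (0.000799), 0.68 for FGFR3 (0.000472) and 1.08 for FGFR4 (0.00025). ERBB2 had 0.53 (adjusted p = 0.0349). The calls of GFRA1, PDGFRA and ERBB2 were fragile. Each was lost in some fits that left out 1 library, that of ERBB2 in 10 of 12, and without the 4 libraries high in SLC11A2.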

How the results depend on the processing

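Each value was recomputed under 11 other settings and in 12 fits that each left out 1 library. Direction and call held for 514 of 536 values under the other settings and for 565 of 600 in the fits without 1 library; 4 values had no fit on 6 libraries, since too few counts were left. The falls of GFRA1 and the rises of RET, FGFR1 and ERBB2 in TCam-2, and the falls of PDGFRA, FGFR2, FGFR3 and FGFR4 in 2102 EP, were called in every fit that could be made.

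Of the 10 genes, 0 were called higher in 2102 EP, and 1 (MET) on 6 libraries, with limma voom, with upper-quartile scaling and without robust estimation; leaving out 1 library gave 0 to 1. Without robust estimation ERBB3 was also called lower there (-1.40, adjusted p = 0.0334). Leaving out 1 library gave 3 to 5 called higher in TCam-2, 0 to 1 called lower for the difference, and 1 to 2 called higher between the lines with I-BRD9. Without the 4 libraries high in SLC11A2, chosen after seeing the data, 1 of 2 called lower between the lines with I-BRD9 was left (MET at an adjusted p of 0.104), none was called lower for the difference (GFRA1 at 0.219), and 1129 genes, against 2043, were called for the difference, in a fit with fewer libraries. Signs turned in that fit only for values that were not called: ERBB2 in 2102 EP (-0.02), FGFR2 between the lines with DMSO (0.06) and PDGFRA between the lines with I-BRD9 (-0.14).

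Other values that changed sign when 1 library was left out were not called either. With I-BRD9 against DMSO in TCam-2 they ran from -0.95 to 0.26 for ERBB3, from -0.10 to 0.17 for FGFR2 and from -0.13 to 1.33 for PDGFRA, and in 2102 EP from 0 to 0.14 for ERBB2. Between the lines they ran from -0.25 to 0.50 for PDGFRA and from -0.23 to 2.25 for GFRA1 with I-BRD9, and from -0.65 to 0.85 for ERBB3 and from -0.17 to 0.19 for FGFR2 with DMSO. With the replicate number as a block, although the numbers did not pair the samples, only the difference for ERBB2 lost its call (0.53, adjusted p = 0.0505), and the counts in 2102 EP were 0 called higher and 4 lower.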
